A study of Mus musculus with 3 samples.

Results

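Expression of 10 genes for cytosolic, non-receptor protein tyrosine phosphatases (PTPs) was examined in mouse regulatory T (Treg) cells. The genes were Ptpn1, Ptpn3, Ptpn4, Ptpn6, Ptpn7, Ptpn11, Ptpn12, Ptpn13, Ptpn18 and Ptpn22. They were chosen by symbol as members of the family and not by a measured value, but with earlier results of these data known. All 10 were found among the 22457 genes of the count tables. Polyadenylated RNA was sequenced from primary Treg cells of male adult mouse origin, aged 4 months. The labels give no genotype, strain, treatment, tissue or number of animals. The 3 libraries are labelled technical replicates 1, 2 and 3 of 1 biological replicate and are called libraries 1, 2 and 3 here. There is therefore 1 group and no contrast between conditions, and every SD and p-value measures the spread between these libraries, not between animals.

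Non-receptor PTPs remove phosphate from tyrosine residues inside the cell and counter the Src, Syk and Janus family kinases. In T cells they set the threshold of signals from the T cell receptor (TCR), from cytokine receptors and from inhibitory receptors. The genes examined cover the SH2-domain phosphatases (Ptpn6, also called SHP-1, and Ptpn11, SHP-2), the PEST group with a long tail rich in proline and serine (Ptpn12, Ptpn18 and Ptpn22), the endoplasmic reticulum enzyme PTP1B (Ptpn1), the MAP kinase phosphatase HePTP (Ptpn7) and the FERM and PDZ domain enzymes (Ptpn3, Ptpn4 and Ptpn13).

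The reaction runs through a cysteine that attacks the phosphate and an arginine that holds it, in the signature motif that defines these enzymes. Each of the 10 longest coding sequences held this motif once. The 30 coding bases around it are shown because they are the feature the family shares, with the codons of that cysteine and arginine in capitals, 5′ to 3′ on the coding strand.
Ptpn1: gtccacTGCagcgccggcatcgggAGGtca
Ptpn3: gttcacTGCagtgctggaataggtCGGaca
Ptpn4: gttcatTGCagtgctggaattggaAGGact
Ptpn6: gtgcatTGCagcgctggcatcggcCGCacg
Ptpn7: gttcacTGCagtgcagggatcggcCGGacc
Ptpn11: gttcacTGCagcgctgggattggcCGGaca
Ptpn12: attcatTGCagtgcaggctgtggaCGAaca
Ptpn13: acacacTGCagcgctggcattggaCGCtca
Ptpn18: gtccacTGCagtgctggctgcggaCGAaca
Ptpn22: attcacTGCagtgccggctgcggaAGGaca

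Ptpn12, Ptpn18 and Ptpn22, the PEST group, were the 3 genes with a second cysteine codon inside the motif. Over the 45 pairs of genes, 18 to 26 of the 30 bases were equal. In 8 of the 10 genes the motif was split by an exon junction, between exons 11 and 12 in Ptpn6 and Ptpn11, between exons 8 and 9 in Ptpn7, Ptpn12, Ptpn18 and Ptpn22, between exons 24 and 25 in Ptpn3 and between exons 25 and 26 in Ptpn4. The exceptions were Ptpn1, where it lay in exon 6, and Ptpn13, where it lay in exon 46. On GRCm38 the printed bases lay at chr2:167974204-167974233 (plus strand) for Ptpn1 and at chr5:103593639-103593668 (plus strand) for Ptpn13. With the intron between the exons, they lay within chr6:124722060-124724967 (minus) for Ptpn6, chr5:121143611-121144540 (minus) for Ptpn11, chr3:103876727-103877323 (plus) for Ptpn22, chr1:34470332-34471511 (plus) for Ptpn18, chr5:21005397-21009452 (minus) for Ptpn12, chr1:135139268-135141961 (plus) for Ptpn7, chr4:57195819-57196361 (minus) for Ptpn3 and chr1:119667631-119675559 (minus) for Ptpn4. The genes themselves lie at chr2:167932057.0-167979385.0 (Ptpn1), chr4:57190841.0-57301837.0 (Ptpn3), chr1:119652467.0-119837613.0 (Ptpn4), chr6:124720707.0-124738714.0 (Ptpn6), chr1:135132700.0-135145317.0 (Ptpn7), chr5:121130533.0-121191397.0 (Ptpn11), chr5:20986645.0-21055911.0 (Ptpn12), chr5:103425192.0-103598303.0 (Ptpn13), chr1:34459762.0-34475733.0 (Ptpn18) and chr3:103859795.0-103912247.0 (Ptpn22) on GRCm38.

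The whole coding sequences ordered the family into 3 close pairs. Ptpn6 and Ptpn11 were 61.1% identical over the columns of their alignment, gaps included, Ptpn3 and Ptpn4 59.4%, and Ptpn12 and Ptpn22 55.2%. The other 42 pairs lay between 12.9% and 50.8%, where unequal length also lowers the value. Ptpn1, Ptpn3, Ptpn4, Ptpn7, Ptpn11, Ptpn12 and Ptpn22 shared no stretch of 31 coding bases with a transcript of another gene, whereas Ptpn6, Ptpn13 and Ptpn18 did, and the gene that shared the most was in each case an antisense gene that was not analysed here. The shared part was 0.560% in Ptpn13 and is given for the others beside their levels. Strand use in counting is not known, so reads of a gene and its antisense partner cannot be told apart.

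The libraries held 3316275, 3079004 and 2782259 counts in libraries 1, 2 and 3, and levels are given as CPM, each count divided by its library's total and multiplied by 1000000. A gene with 3 counts would thus stand at 0.905, 0.974 and 1.08 CPM. Treg and T cell markers were present. Foxp3, the transcription factor of the lineage, had 142 ± 6.17 CPM (SD, n = 3, as in all values below), and all 5 Treg and all 5 T cell markers reached 1 CPM in each library. The genes of the CD8 coreceptor were unequal, with 0, 0 and 1 counts of Cd8a and 71, 62 and 89 counts of Cd8b1 in libraries 1, 2 and 3. Ranges of other cell types' markers are given with the differences between libraries.

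All 10 phosphatase genes were detected, that is, reached 1 CPM in each library, against 47.3% of all 22457 genes. Their median level was 196 CPM, against 45.6 CPM for the 10611 detected genes. Their summed share of all counts was 0.216% in library 1, 0.215% in library 2 and 0.211% in library 3. Since longer transcripts give more counts, genes were compared with each other as CPM per kilobase (kb) of coding length. On this scale the median was 72.6 for the 10 genes and 30.7 for all detected genes with a coding length. The genes differed 66.4-fold among themselves, with Ptpn7 highest and Ptpn3 lowest. The 5 highest, Ptpn7, Ptpn1, Ptpn22, Ptpn6 and Ptpn18, made up 93.7% ± 0.165 of the family's summed CPM per coding kb.

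**Figure D1:**
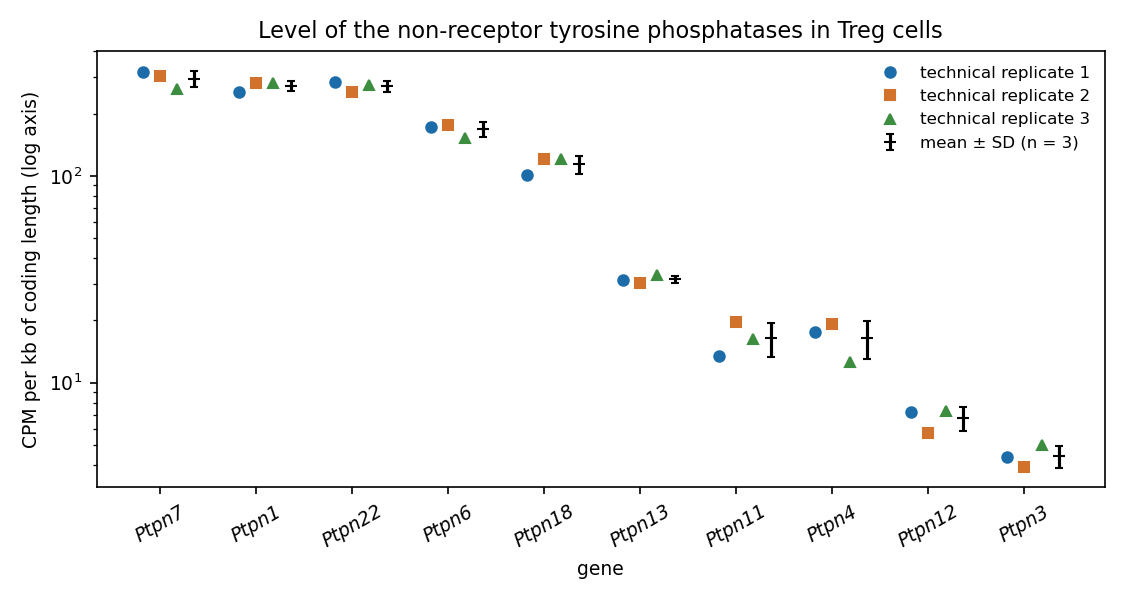
Level of each gene as CPM per kb of coding length (log axis) in the 3 technical libraries (points) with mean ± SD (bars, n = 3). Ptpn7, Ptpn1 and Ptpn22 lie together near the top, and Ptpn11, Ptpn4, Ptpn12 and Ptpn3 lie under 20.

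The PEST group held ranks 3, 5 and 9 of the family per coding kb. Ptpn22 encodes PEP (LYP in humans), which binds the kinase Csk and dephosphorylates Lck and Zap70. It had 2268, 1881 and 1849 counts in libraries 1, 2 and 3, equal to 684, 611 and 665 CPM (mean 653 ± 37.8), the highest CPM of the 10. Library 2 was the low one, and its exact 95% Poisson interval of 584 to 639 CPM did not reach the interval of library 1, 656 to 713 CPM. Per coding kb, Ptpn22 had 271 ± 15.7 CPM, at percentile 97.1 of the 21784 genes with a coding length.

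Ptpn18, a PEST phosphatase of blood cells also known as PTP-HSCF, had 461, 509 and 465 counts, equal to 139, 165 and 167 CPM (mean 157 ± 15.7). Library 1 was low, and libraries 2 and 3 were alike. Per coding kb it had 114 ± 11.4 CPM and percentile 90.5. The level of Ptpn18 is uncertain, because 26.6% of its coding 31-mers were shared with other annotated genes, with the antisense gene Gm28417 sharing the most.

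Ptpn12 encodes PTP-PEST, a phosphatase of the adaptor p130Cas and of the actin regulator WASP. It had only 56, 41 and 47 counts, equal to 16.9, 13.3 and 16.9 CPM (mean 15.7 ± 2.06). The Poisson intervals of the 3 libraries overlapped, from 12.8 to 21.9 CPM in library 1, 9.56 to 18.1 in library 2 and 12.4 to 22.5 in library 3. Each pair of the group shared 25 of the 30 motif bases. Ptpn12 and Ptpn22 were the most identical pair over alignment columns, gaps included, where the shorter Ptpn18 lowers the values of its pairs. Ptpn22 stood 39.1-fold, 44.3-fold and 38.0-fold above Ptpn12 per coding base in libraries 1, 2 and 3. From summed counts the ratio per coding base was 40.3, with an exact 95% interval of 34.1 to 47.8. Ptpn18 stood 16.8-fold above Ptpn12 (14.1 to 20.0), and Ptpn22 2.40-fold above Ptpn18 (2.27 to 2.55). These intervals cover counting error only. Per exon base the mean log2 ratios were smaller, at 4.44 against 5.34 per coding base for Ptpn22 to Ptpn12 and at 2.44 against 4.08 for Ptpn18 to Ptpn12, while that of Ptpn22 to Ptpn18 was larger, at 2.00 against 1.26.

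The SH2-domain phosphatases were also unequal. SHP-1, encoded by Ptpn6, is recruited by inhibitory receptors with tyrosine motifs and damps TCR and cytokine signals. Ptpn6 had 1088, 1040 and 808 counts, equal to 328, 338 and 290 CPM (mean 319 ± 25.0), with library 3 lowest. Antisense exons of Gm20531 cover 6.96% of its exon bases, and 9.71% of its coding 31-mers were shared with other annotated genes, with Gm20531 sharing the most.

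SHP-2, encoded by Ptpn11, is recruited by similar receptors, among them PD-1, and is needed for Ras and ERK activation by growth factors. Ptpn11 had 80, 108 and 81 counts, equal to 24.1, 35.1 and 29.1 CPM (mean 29.4 ± 5.48). Library 2 was highest, but the Poisson intervals of all 3 libraries overlapped, with 28.8 to 42.3 CPM in library 2 and 23.1 to 36.2 CPM in library 3. Per coding kb, Ptpn6 had 168 ± 13.1 CPM and Ptpn11 16.4 ± 3.06 CPM. Ptpn6 was thus 12.8-fold, 9.06-fold and 9.39-fold above Ptpn11 in libraries 1, 2 and 3 (mean log2 ratio 3.36 ± 0.27), and the ratio over summed counts was 10.3 (9.06 to 11.7). Per kb of all exons the mean log2 ratio was 4.87, because Ptpn11 has 7492 exon bases and Ptpn6 2802.

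Ptpn1 and Ptpn7 stood among the highest genes of the family. PTP1B, encoded by Ptpn1, dephosphorylates the insulin receptor and the Janus kinases Jak2 and Tyk2 from the endoplasmic reticulum. Ptpn1 had 1098, 1126 and 1008 counts, equal to 331, 366 and 362 CPM (mean 353 ± 19.1), with library 1 lowest. HePTP, encoded by Ptpn7, is a phosphatase of blood cells that inactivates the MAP kinases ERK and p38. Ptpn7 had 1131, 1007 and 790 counts, equal to 341, 327 and 284 CPM (mean 317 ± 29.8), and library 3 was lowest, with an interval of 264 to 304 CPM that lay under the 307 to 348 CPM of library 2. Per coding kb, Ptpn7 had 295 ± 27.6 CPM, Ptpn1 272 ± 14.7 CPM and Ptpn22 271 ± 15.7 CPM. The ranges of neighbours in this order overlapped, so these 3 levels were not separated.

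The FERM and PDZ domain phosphatases held ranks 6, 8 and 10 per coding kb. Ptpn13, a very large enzyme of the cell cortex whose human form binds the death receptor FAS, had 774, 695 and 683 counts, equal to 233, 226 and 245 CPM (mean 235 ± 9.96). It had the smallest relative spread of the 10, with a coefficient of variation of 4.24%. Spread over 7436 coding bases, this is 31.6 ± 1.34 CPM per coding kb and percentile 76.2, which places it at rank 5 by CPM and at rank 6 per coding kb. Ptpn4, which in human T cells was reported to act on the TCR zeta chain, had 166, 169 and 100 counts, equal to 50.1, 54.9 and 35.9 CPM (mean 47.0 ± 9.84), with library 3 low. Ptpn3, its closest relative, had 40, 33 and 38 counts, equal to 12.1, 10.7 and 13.7 CPM (mean 12.1 ± 1.47), and its 3 libraries overlapped. Per coding kb, Ptpn4 had 16.4 ± 3.44 CPM and Ptpn3 4.43 ± 0.537 CPM. Ptpn4 was 3.97-fold, 4.90-fold and 2.52-fold above Ptpn3 in libraries 1, 2 and 3, and 3.75-fold (3.04 to 4.67) over summed counts. The mean log2 ratio was 1.87 ± 0.49 per coding base and 1.29 per exon base.

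Several neighbours in the order were separated and others were not. Per coding kb the order ran Ptpn7, Ptpn1, Ptpn22, Ptpn6, Ptpn18, Ptpn13, Ptpn11, Ptpn4, Ptpn12 and Ptpn3. The ranges of the 3 libraries overlapped within the first 3 genes and between Ptpn11 and Ptpn4, both at 16.4 CPM per coding kb. They did not overlap at the 6 other steps, of which the widest was the 3.60-fold step between Ptpn18 and Ptpn13. The order depended on the length used. Per kb of all exons, Ptpn6 was first with 114 ± 8.93 CPM, ahead of Ptpn22 with 96.4 ± 5.58, Ptpn1 with 63.8 ± 3.45 and Ptpn7 with 52.0 ± 4.88. Ptpn7, with 1077 coding bases among 6102 exon bases, was at rank 1 per coding kb and at rank 4 per exon kb. Ptpn3 was last on every scale used. Which part of a transcript the counts cover is not known here.

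**Figure D2:**
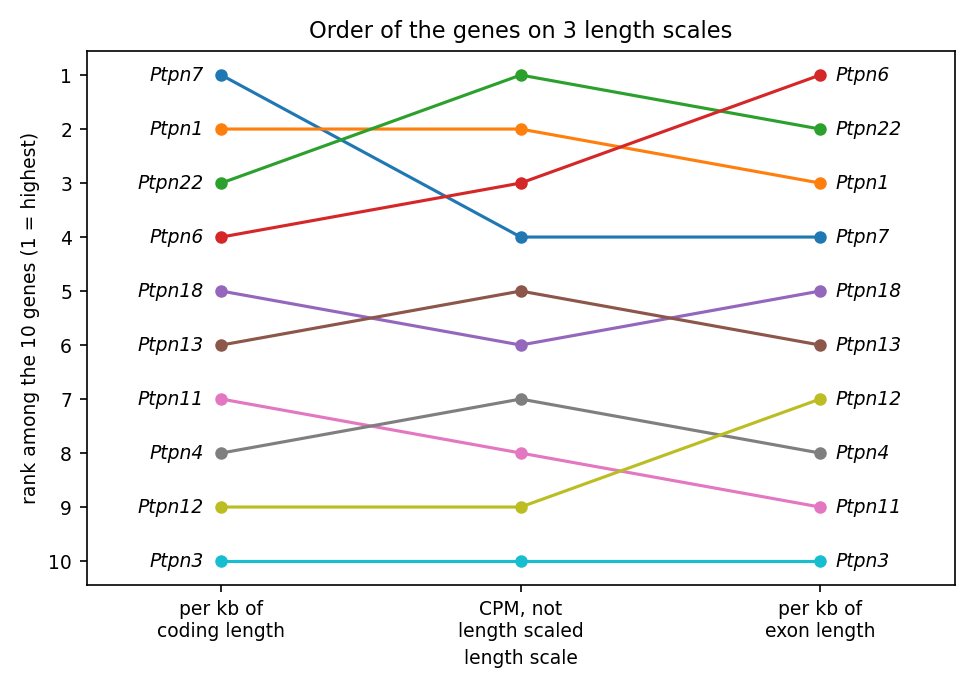
Rank of the 10 genes (1 = highest, lines join a gene) by mean level over the 3 libraries per kb of coding length, as CPM without length scaling, and per kb of exon length. Ptpn3 stays at rank 10, while Ptpn7 moves from rank 1 to rank 4 and Ptpn6 from rank 4 to rank 1.

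Against the other classical PTP genes, the 10 genes held 56.0% of the summed CPM per coding kb of the 37 classical PTP genes measured. Ptprc, which encodes the receptor phosphatase CD45 that activates Lck, held 26.0% alone on this scale. Without length scaling, the 10 genes had 0.214% of all counts, the 7 other non-receptor PTPs 0.0356% and the 20 receptor PTPs 0.249%. Ptprc stood above each of the 10 per coding kb, with Ptpn7 at 0.596, 0.558 and 0.448 of the Ptprc level per coding base in libraries 1, 2 and 3. Ptprc has 3879 coding bases among 18313 exon bases, and its place among these genes per exon kb was not computed. Of the 7 other non-receptor PTPs, 5 were detected (median 12.9 CPM). Ptpn2, which encodes TC-PTP, the closest known relative of PTP1B and a phosphatase of Jak1 and Jak3, had 265 ± 21.1 CPM. Ptpn1 was 1.28-fold, 1.34-fold and 1.20-fold above Ptpn2 per coding base in libraries 1, 2 and 3, but lay below it per exon base, with a mean log2 ratio of -0.41.

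The remaining non-receptor PTPs were low. Ptpn5, best known as the striatum-enriched phosphatase of neurons, had 125, 141 and 78 counts (37.2 ± 8.89 CPM). Its 22.9 CPM per coding kb lay above the means of Ptpn11, Ptpn4, Ptpn12 and Ptpn3. Ptpn23 had 29.0 ± 3.63 CPM, Ptpn21 12.9 ± 4.50 and Ptpn9 12.8 ± 0.158. Ptpn14 had a single count, in library 1, and Ptpn20 had none, which allows up to 0.905, 0.974 and 1.08 CPM in libraries 1, 2 and 3. Of the 20 receptor PTPs measured, 5 were detected (median 0.330 CPM). These were Ptprc at 2151 ± 115 CPM, Ptpra at 175 ± 3.38, Ptpre at 115 ± 8.35, Ptprs and Ptprj, and 5 others, among them Ptprd, had no count in any library. Ptpn11 had 0.235 of the level of Ptpra per coding base over summed counts (0.206 to 0.268).

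**Figure D3:**
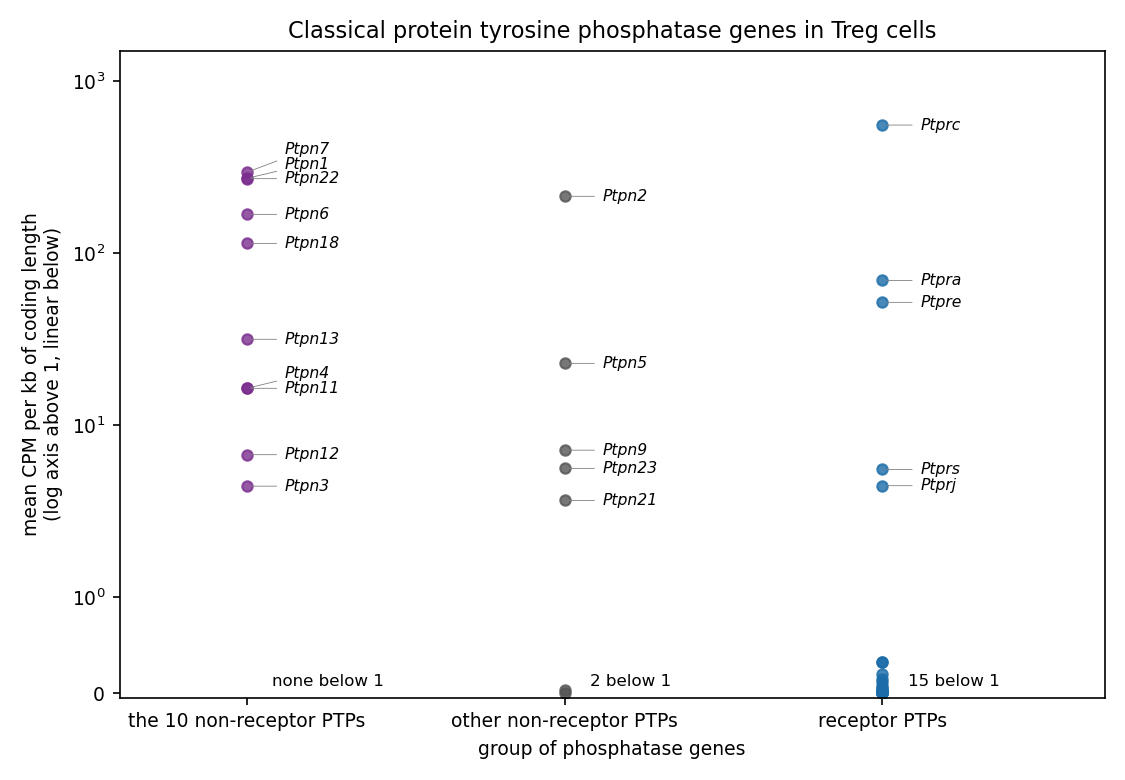
Mean level over the 3 libraries (n = 3, CPM per kb of coding length, log axis above 1 and linear below) of the 10 genes, of 7 other non-receptor PTPs and of 20 receptor PTPs, each point a gene. All of the 10 lie above 4, whereas 2 of the other non-receptor and 15 of the receptor PTPs lie below 1.

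The genes for known partners and substrates were measured in the same libraries. Of the 21 TCR-proximal kinases and adaptors, all were detected (median 210 CPM). Lck, the Src family kinase of T cells, had 981 ± 53.3 CPM, the adaptor Lcp2 868 ± 8.80 and the kinase Zap70 585 ± 57.7, while Pag1, a membrane anchor of Csk, was lowest at 8.76 ± 1.30. Csk, the kinase that Ptpn22 binds, had 291 ± 14.5 CPM. Per coding base, Ptpn22 was 1.40-fold, 1.14-fold and 1.26-fold above Csk in libraries 1, 2 and 3 (1.26 over summed counts, 1.21 to 1.32).

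Of 13 partners and targets of the PEST phosphatases, 11 were detected (median 66.0 CPM). The highest were Ptk2b, the focal adhesion kinase of blood cells, at 412 ± 37.9 CPM, Csk and the WASP partner Wipf1 at 170 ± 27.0. The lowest was the adaptor Pstpip2, with 1, 1 and 0 counts. Pstpip1, an adaptor that PEST phosphatases bind, had 108 ± 12.1 CPM, and the p130Cas gene Bcar1 had 4.24 ± 0.847; both were named after their values were seen.

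Of 14 receptors that recruit SHP-1 or SHP-2, 8 were detected (median 16.0 CPM). Cd5, which restrains TCR signals, had 666 ± 12.4 CPM, Pdcd1 (PD-1) 312 ± 24.1 and Klrg1 286 ± 23.7, and Pilra was lowest with 0, 1 and 1 counts.

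Of 22 genes of the Ras and MAP kinase pathway, 19 were detected (median 23.5 CPM). The Ras activator Rasgrp1 had 191 ± 9.18 CPM and the kinase Map2k2 70.0 ± 21.8, and Gab1, an adaptor that binds SHP-2, had no count. Mapk3 (ERK1), a substrate of HePTP, had 99, 91 and 115 counts in libraries 1, 2 and 3. Ptpn7 was 13.0-fold, 12.5-fold and 7.79-fold above Mapk3 per coding base in libraries 1, 2 and 3. Per exon base the mean log2 ratio of Ptpn7 to Mapk3 was 1.82, against 3.44 per coding base.

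All 12 genes of the Janus kinase, STAT and insulin receptor list were detected (median 280 CPM). The kinase gene Jak1 had 1055 ± 68.5 CPM and the transcription factor gene Stat6 534 ± 96.8. Insr, the insulin receptor that PTP1B acts on, was lowest at 9.75 ± 2.83 CPM.

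Between the libraries, 5 of the 10 genes differed beyond Poisson noise, against 22.7% of the 10043 genes tested (chi-square test of counts against library totals, adjusted over all genes with 30 or more summed counts). Ptpn7 had an adjusted p of 0.00306, Ptpn22 0.00852, Ptpn4 0.0175, Ptpn6 0.0209 and Ptpn18 0.0337 by this chi-square test. Their highest library was 1.20-fold above the lowest for Ptpn7, 1.12-fold for Ptpn22, 1.53-fold for Ptpn4, 1.16-fold for Ptpn6 and 1.20-fold for Ptpn18. Ptpn7, Ptpn6 and Ptpn4 were lowest in library 3, Ptpn22 in library 2 and Ptpn18 in library 1. For the others the chi-square test gave adjusted p of 0.118 for Ptpn1, 0.121 for Ptpn11, 0.462 for Ptpn13, 0.595 for Ptpn12 and 0.724 for Ptpn3.

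Genes with more counts passed more often. Of all genes with 1000 or more summed counts, 39.6% passed, and so did 4 of the 6 members in that class, where Ptpn1 and Ptpn13 did not. Of genes with 30 to 299 summed counts, 12.9% passed, and none of Ptpn3, Ptpn11 and Ptpn12 did. When the spread between libraries seen over all genes was added to the variance, as edgeR's common dispersion (a coefficient of variation of 9.52%), 0.926% of the genes tested and none of the 10 passed, with adjusted p of 0.670 for Ptpn4, 0.834 for Ptpn11 and 0.996 for each of the other 8 in this chi-square test. Added variance can only lower the number that pass, and this spread was estimated from the same 3 libraries that were tested. Without adjustment, the Poisson chi-square test gave p of 0.0370 for Ptpn1 and 0.0380 for Ptpn11. The share of all genes under an unadjusted 0.05 was not computed, so these 2 genes are not counted as differing.

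**Figure D4:**
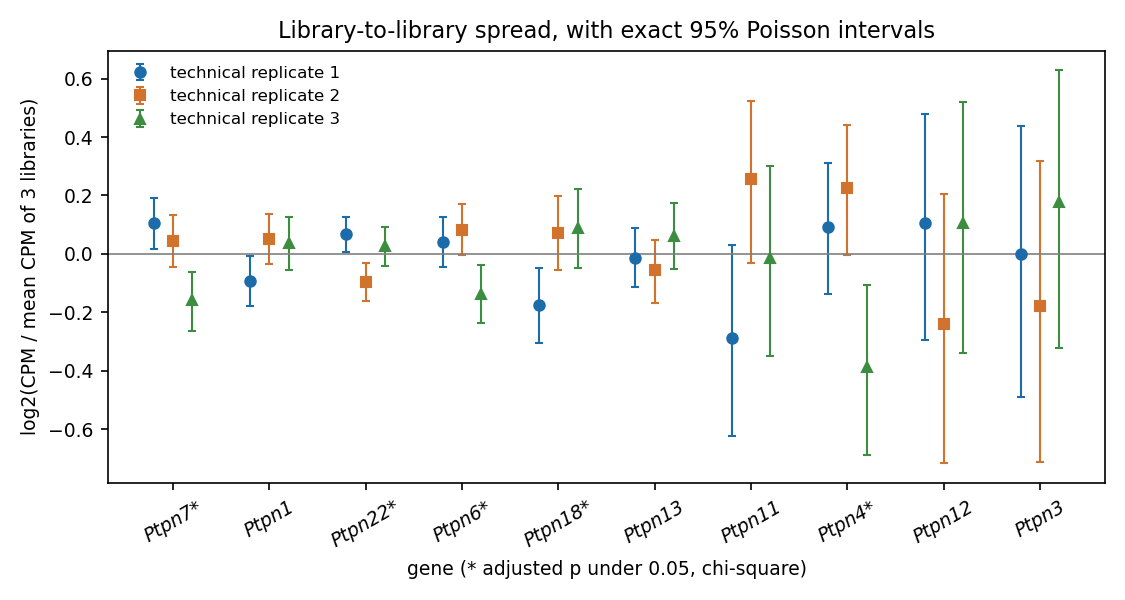
Log2 of the CPM in each technical library over the mean of the 3 libraries, with exact 95% Poisson intervals as bars; an asterisk marks an adjusted p under 0.05 by chi-square test. Ptpn7, Ptpn6 and Ptpn4 are lowest in library 3, Ptpn22 in library 2 and Ptpn18 in library 1.

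Without library 1, Ptpn4, Ptpn6 and Ptpn7 passed the chi-square test, against 13.1% of all genes tested. Without library 2, Ptpn7 and Ptpn18 passed, against 15.3% of all genes tested. Without library 3, Ptpn22 was the 1 gene of the 10 that passed, against 9.43% of all genes tested. Markers of other cell types also moved between the libraries. The 10 B cell markers, 8 of them detected, summed to 63.3, 161 and 196 CPM in libraries 1, 2 and 3, with Pax5 at 0, 1 and 1 counts. The 10 monocyte and macrophage markers, 4 detected, summed to 23.8, 92.9 and 41.0 CPM. The 5 plasma cell markers, 2 detected, summed to 6.94, 30.5 and 77.3 CPM, with Tnfrsf17 at 1, 0 and 0 counts. The 7 dendritic cell markers, 1 detected, summed to 5.73, 23.1 and 11.9 CPM, with Clec9a at 0, the 6 erythroid markers to 6.03, 11.7 and 27.7 CPM, with Klf1 at 0, and the 7 neutrophil markers to 3.32, 8.12 and 5.75 CPM, with Mpo at 0. The 5 NK cell markers summed to 4.52, 7.47 and 3.59 CPM, the 2 CD8 markers to 21.4, 20.1 and 32.3 CPM, and the 9 epithelial and stromal markers to 40.7, 50.0 and 41.7 CPM, with Krt8, Krt19 and Pdgfra at 0. Of the 10 genes, Ptpn18, Ptpn1 and Ptpn11 were lowest in library 1. The B cell, plasma cell, monocyte and macrophage, dendritic cell, erythroid, neutrophil, and epithelial and stromal sums were also lowest there. Ptpn22, Ptpn3, Ptpn12 and Ptpn13 were lowest in library 2. There the monocyte and macrophage, dendritic cell, neutrophil, NK cell, and epithelial and stromal sums were highest and the CD8 sum lowest. Ptpn6, Ptpn7 and Ptpn4 were lowest in library 3. The B cell, plasma cell, erythroid and CD8 sums were highest there, and the NK cell sum lowest. Ptpn1, Ptpn11, Ptpn3, Ptpn12 and Ptpn13 had not passed the test with all 3 libraries. The part of these markers' cells in the differences between libraries was not tested. In bulk RNA, fewer cells of a type and less RNA per cell cannot be told apart.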

How the data were processed

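The deposited values are raw whole-number counts per gene, in 1 table for each of the 3 libraries of 1 group. Per the notes beside the deposited tables, the authors made them from mm10 alignments and the GENCODE M4 annotation. Not given in the sources used here are the aligner, the counter, the use of strand and the treatment of duplicates. The libraries held 2782259 to 3316275 counts.

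Symbols, coordinates and lengths came from GENCODE M21 on GRCm38, the same assembly in a later annotation release. Of 22457 identifiers, 22195 matched a symbol and 21784 had a coding length. Coding length is the union of coding exons. Coding sequences came from the M21 transcripts. The planned comparison of RefSeq proteins was made on these coding sequences instead, by global alignment (Biopython 1.88), because a protein table was not used here. Coding 31-mers were searched in the transcripts of all other genes, on either strand.

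Levels are CPM of the library total. Library differences were tested for each gene with 30 or more summed counts by a chi-square test with 2 degrees of freedom (SciPy 1.17.1) and Benjamini-Hochberg adjustment over all genes, at a threshold of 0.05. With 1 group, edgeR's quasi-likelihood test has no contrast to test. The chi-square test was first tested on simulated Poisson counts. Apart from planted differences, these held no added spread between libraries, so that check does not cover the spread seen in these data. Alternatives were TMM scaling and the common dispersion (edgeR 4.0.16), DESeq2 1.42.0 size factors, no count filter, other detection thresholds, exon length, no length scaling and leaving out each library. Poisson and Clopper-Pearson intervals are exact at 95% and, like the limit of 3 counts, reflect counting error alone, because reads can be copies of one molecule.

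The genes and lists were chosen with earlier results of these data known. All 10 phosphatases are named with full values, every other non-receptor PTP is named, and of each other gene list the 3 highest and the lowest measured gene by mean CPM are named. Some genes that this rule takes are not reported here. Of the listed receptor PTPs, Ptprv was not analysed here. With 3 libraries of 1 sample, no gene was named for likeness of pattern.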

Additional observations from a re-analysis of the deposited data

How the results depend on the processing

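All 10 genes remained detected at 0.5 CPM, at 5 CPM, with TMM-scaled totals and without any 1 library. For 0.5 CPM and for leaving out a library this outcome was fixed in advance, because each gene had reached 1 CPM in every library. The lowest level, 10.7 CPM of Ptpn3 in library 2, lay above 5 CPM, so the other settings could hardly change it. None of the 50 single-gene levels recomputed with TMM, with DESeq2 size factors or without 1 library moved by more than the SD between libraries. Without 1 library this was fixed in advance, because leaving out 1 of 3 values cannot move their mean by more than their SD. The TMM factors of 0.995, 0.994 and 1.01 in libraries 1, 2 and 3 also left little room for a move. DESeq2 size factors of 1.08, 1.00 and 0.930 ran in the order of the library totals. They were rescaled to the mean library total, so they left little room as well. The order of the 45 gene pairs was kept for 36 pairs with exon length, for 39 without length scaling and for 43 to 45 without 1 library. The summed share of Ptpn7, Ptpn1, Ptpn22, Ptpn6 and Ptpn18, the 5 highest per coding kb, was 91.2% with exon length and 84.1% without length scaling, where Ptpn13 ranked above Ptpn18, and the log2 ratio of Ptpn6 to Ptpn11 was 4.87 with exon length, where the longer exons of Ptpn11 lower its level by construction. Differences between libraries depended most on the settings. The count of the 10 genes that passed was 5 with TMM scaling and with no count filter, 4 with DESeq2 size factors (without Ptpn18, adjusted p = 0.0611 by chi-square test), 0 with edgeR's common dispersion and 1 to 3 without 1 library. Of all genes tested, 22% passed with TMM scaling, 21.9% with DESeq2 size factors and 14% with no count filter. With the common dispersion 93 passed (0.926%), and without 1 library 904 to 1466 did (9.43% to 15.3%). Leaving out a library leaves fewer counts and fewer degrees of freedom. The common dispersion was estimated from the libraries tested and, as added variance, can only lower the number that pass. No paired analysis was possible because the libraries form 1 group. Depth limits the lowest genes, Ptpn3 and Ptpn12, with under 60 counts in each library.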
